A study of Mus musculus with 8 samples.

Results

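The genes described here mark the endothelial cells that line blood vessels and the barrier that these cells form in the central nervous system. They were taken by name, 35 in all, and each was represented by the probe set annotated to its symbol alone with the highest mean log2 signal over the arrays. Of the 35 genes, 34 were measured, among 18193 genes on the array, and Ly6a was not analysed here. They comprised 10 receptors and signalling ligands, 9 junction and surface adhesion proteins, 7 barrier transporters, 4 transcription factors and 4 secreted proteins, enzymes and other surface markers.

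Optic nerves were maintained for 3 days in organotypic culture in medium with 20 mM lithium chloride (4 samples) or in control medium with saline (4 samples). Per the labels, the nerves of both groups came from C57BL/6 mice aged 35 to 45 days, with 6 nerves in each sample, whereas the study's methods name another substrain and a different number of nerves, without saying how these were divided among the samples. The arachnoid membrane had been stripped off. No source says whether samples within a group were separate cultures or animals, and the p-values then cover only sample-to-sample spread, part of which may be technical. RNA of each sample was hybridised to 1 Affymetrix array, and the deposited values were MAS5 signals, linear intensities scaled to the same trimmed mean on each array. The isolated nerve in culture has vessels but no blood flow, and the RNA came from all its cells together, so that fewer endothelial cells and less RNA per endothelial cell cannot be told apart in any value below.

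Endothelial cells of the brain, the retina and the optic nerve differ from those of most other organs. Tight junctions seal the gaps between them, transporters carry sugars, hormones and lipids inwards and drugs outwards, and few vesicles cross the cell. Vascular endothelial growth factor (VEGF), angiopoietins and Notch ligands regulate their growth and branching through receptors at their surface, Wnt signalling through beta-catenin induces barrier genes, and transcription factors of the ETS and SOXF families maintain endothelial identity. Lithium is known as an inhibitor of glycogen synthase kinase 3, an enzyme that marks beta-catenin for degradation.

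The 8 endothelial markers used as a check of the cell type (Cdh5, Pecam1, Cldn5, Kdr, Tie1, Flt1, Emcn and Esam) lay above the poly-A control transcripts on all 8 arrays. These are bacterial RNAs, and the highest of their probe sets read 3.56 to 4.33 on lithium arrays and 2.13 to 5.64 on control arrays. The median signal of all probe sets was 12.3 to 16.5 on lithium arrays and 14.8 to 17.5 on control arrays. For Gapdh, whose 3′ to 5′ balance reflects RNA quality, the 3′ probe set exceeded the 5′ one by 0.43 ± 0.07 (log2) in lithium and 0.37 ± 0.02 in control (SD, n = 4 each). Its part in the values below was not tested.

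The sequences upstream of the start sites are shown for both genes called below, Kdr and Abcg2, and for Flt1, Slc2a1 and Egfl7, the genes taken as the one with the highest signal of their role. Of several windows of a gene, those of Abcg2 with a match and the one of Egfl7 with the most matches are shown. Each line holds the 250 bases before the start site, 5′ to 3′ on the strand of the gene, from RefSeq on build GRCm38.p6. Capitals mark letters known from the binding sequences of ETS factors (CCGGAAG or CAGGAAG) or of TCF/LEF factors of the Wnt pathway (CTTTGAT or CTTTGAA), searched on both strands together with SOX letters (ACAATGG or ACAAAGG).
Kdr, chr5:75978456-75978705, minus strand: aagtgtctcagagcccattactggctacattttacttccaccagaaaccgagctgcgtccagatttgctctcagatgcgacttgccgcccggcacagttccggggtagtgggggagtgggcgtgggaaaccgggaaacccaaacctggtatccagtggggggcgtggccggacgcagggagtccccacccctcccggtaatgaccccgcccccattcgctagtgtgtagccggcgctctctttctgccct
Abcg2, first window shown, chr6:58596422-58596671, plus strand: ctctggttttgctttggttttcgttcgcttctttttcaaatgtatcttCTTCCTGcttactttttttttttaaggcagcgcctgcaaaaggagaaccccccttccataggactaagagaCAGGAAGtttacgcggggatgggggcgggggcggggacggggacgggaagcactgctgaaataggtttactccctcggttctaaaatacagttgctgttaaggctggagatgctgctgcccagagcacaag
Abcg2, second window shown, chr6:58640296-58640545, plus strand: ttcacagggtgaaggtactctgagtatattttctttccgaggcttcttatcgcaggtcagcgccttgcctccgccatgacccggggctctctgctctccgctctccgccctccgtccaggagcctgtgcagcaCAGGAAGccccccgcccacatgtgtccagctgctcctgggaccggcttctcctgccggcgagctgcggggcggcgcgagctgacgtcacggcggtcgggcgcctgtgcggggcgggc
Flt1, chr5:147726012-147726261, minus strand: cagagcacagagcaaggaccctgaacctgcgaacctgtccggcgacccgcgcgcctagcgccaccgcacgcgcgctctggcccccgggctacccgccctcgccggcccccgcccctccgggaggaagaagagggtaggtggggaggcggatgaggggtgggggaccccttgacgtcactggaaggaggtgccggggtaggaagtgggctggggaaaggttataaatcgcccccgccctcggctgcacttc
Slc2a1, chr4:119108495-119108744, plus strand: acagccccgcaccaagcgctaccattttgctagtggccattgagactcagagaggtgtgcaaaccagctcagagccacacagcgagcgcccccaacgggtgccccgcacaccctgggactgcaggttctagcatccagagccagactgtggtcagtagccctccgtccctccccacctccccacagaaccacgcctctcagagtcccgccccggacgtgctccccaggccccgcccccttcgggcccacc
Egfl7, chr2:26580833-26581082, plus strand: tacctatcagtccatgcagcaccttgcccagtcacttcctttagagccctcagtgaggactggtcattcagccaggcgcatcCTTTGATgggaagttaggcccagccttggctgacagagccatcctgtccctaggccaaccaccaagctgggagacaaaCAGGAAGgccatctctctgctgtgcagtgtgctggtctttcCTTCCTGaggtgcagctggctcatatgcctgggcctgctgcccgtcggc

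Promoter windows were found for 21 of the 35 genes, 28 windows in all. ETS letters stood in 10 of these 28 windows (35.7%), against 17% of all 32851 promoter windows of the same length. They were found in 8 genes, Abcg2, Cd34, Egfl7, Emcn, Erg, Itm2a, Notch4 and Robo4. In the windows shown above, the first Abcg2 window holds these letters at both 202 and 131 bases before the start site, and the second holds them at 117 bases. TCF/LEF letters stood in 2 of 28 windows (7.14%), those of Abcb1a and Egfl7, against 7.48% of all windows, and SOX letters in 1 window of Egfl7 that is not shown (3.57%), against 7.92%. A match is only a run of letters, and it was not tested whether any factor binds there.

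Across the endothelial genes, most mean levels were lower in lithium-treated nerves than in controls, and few differences passed the test. Kdr and Abcg2 fell, none rose, and 32 of 34 did not pass an adjusted p of 0.05 (limma, Benjamini-Hochberg over all probe sets). The 2 that fell are 5.88% of the genes measured, against 2.05% of all genes called lower and 1.18% called higher. With the replicate number as a block neither passed (adjusted p = 0.0989 for Kdr and 0.056 for Abcg2). Without adjustment, 14 of 34 genes (41.2%) had a p under 0.05 in the lower direction, against 12.6% of all genes, and 0 in the higher one, against 9.38% of all genes. The mean log2 value was lower in lithium for 28 of 34 genes (82.4%), against 50.3% of all genes. The lithium and control arrays did not overlap, with lithium lower, for 9 of 34 genes (26.5%), against 8.92% of all genes, and with lithium higher for 0, against 6.47% of all genes. The median log2 fold change (lithium minus control) was -0.60 over the 34 genes, with a range of -2.03 to 0.40, and -0.0028 over all genes.

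**Figure D1:**
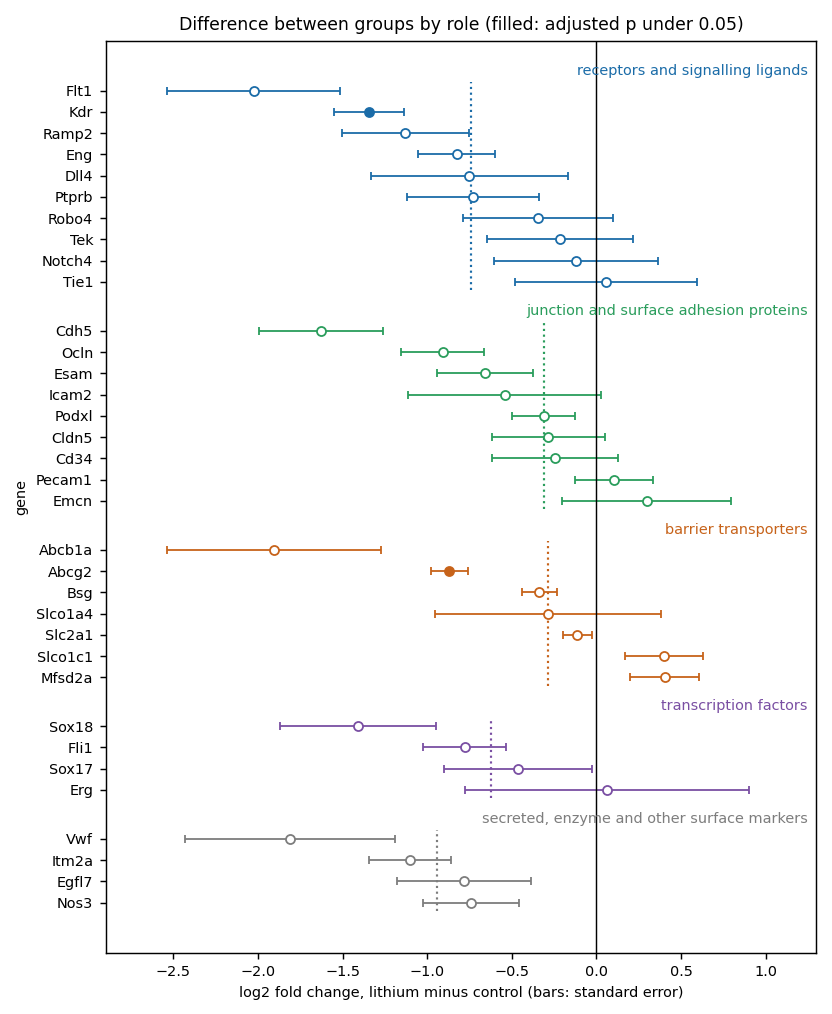
Log2 fold change of each measured endothelial gene, lithium minus control (x axis), with the standard error as bars, grouped by role (y axis). Filled points passed an adjusted p of 0.05, dotted lines are the medians of the roles, and 28 of 34 points lie left of 0.

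The receptors and signalling ligands had a median log2 fold change of -0.74 over 10 genes, with 1 called lower (10%, against 2.05% of all genes), 0 called higher and 9 not past the test. Kdr encodes VEGF receptor 2, the main receptor through which VEGF drives endothelial growth. Its signal was 7.25, 5.63, 6.2 and 5.71 on lithium arrays 1 to 4, against 11.3, 14.6, 16.5 and 22.1 on control arrays 1 to 4. Every lithium value lay below every control value, and all were low on the array's scale. Kdr fell 2.54-fold (log2 fold change -1.35, SE 0.21, adjusted p = 0.0321 by limma). When single arrays were left out its adjusted p lay between 0.0447 and 0.0813, and it passed only without control array 1.

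Flt1, VEGF receptor 1, binds VEGF and limits the amount that reaches the other receptor. It read 37.0, 40.3, 145 and 136 on lithium arrays 1 to 4, against 294, 254, 294 and 368 on control arrays 1 to 4. The groups did not overlap, and lithium arrays 1 and 2 were far below lithium arrays 3 and 4. The log2 fold change was -2.03 (SE 0.51, adjusted p = 0.0992), which did not pass. All 4 probe sets of Flt1 were lower in lithium, and a dimmer one passed, with means of 15.6 ± 7.91 in lithium and 75.2 ± 11.6 in control (SD, n = 4 each), a log2 fold change of -2.41 and an adjusted p of 0.0344 by limma.

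Eng, a co-receptor for bone morphogenetic proteins, read 39.7, 43.4, 56.0 and 70.0 on lithium arrays 1 to 4, against 81.4, 70.4, 108 and 108 on control arrays 1 to 4. Its groups came close without overlapping, and the log2 fold change was -0.83 (SE 0.23, adjusted p = 0.119). Ramp2, which partners the receptor for adrenomedullin, a peptide that stabilises vessels, read 41.4, 36.5, 98.8 and 78.5 in lithium and 112, 93.5, 152 and 170 in control. Lithium array 3 lay above control array 2, and the log2 fold change was -1.13 (SE 0.38, adjusted p = 0.178).

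The receptors of the angiopoietin system showed smaller differences. Tek, the angiopoietin receptor also called TIE2, averaged 35.1 ± 12.6 in lithium and 42.3 ± 20.1 in control (log2 fold change -0.22, adjusted p = 0.861). Tie1, its partner receptor, averaged 9.84 ± 5.44 in lithium and 9.30 ± 4.69 in control (0.06, adjusted p = 1.00). The groups of both genes overlapped, and the sign of both differences turned when single arrays were left out. Ptprb, the endothelial phosphatase that restrains TIE2 and associates with VE-cadherin, averaged 18.3 ± 7.16 in lithium and 31.3 ± 14.7 in control (-0.73, SE 0.39, adjusted p = 0.400), and was lower on the lithium array of all 4 number pairs.

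Dll4, the Notch ligand of endothelial tip cells and arteries, averaged 5.16 ± 3.28 in lithium, with 2 arrays at or under the poly-A controls, and 7.13 ± 1.65 in control (log2 fold change -0.75, adjusted p = 0.588). Notch4, a Notch receptor found mainly on endothelium, averaged 67.5 ± 34.3 in lithium and 69.2 ± 26.5 in control (-0.12, adjusted p = 0.953). Robo4, an endothelial roundabout receptor, averaged 15.1 ± 5.43 in lithium and 19.7 ± 9.47 in control (-0.34, adjusted p = 0.758). The groups of these 3 genes overlapped, and none passed the test.

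**Figure D2:**
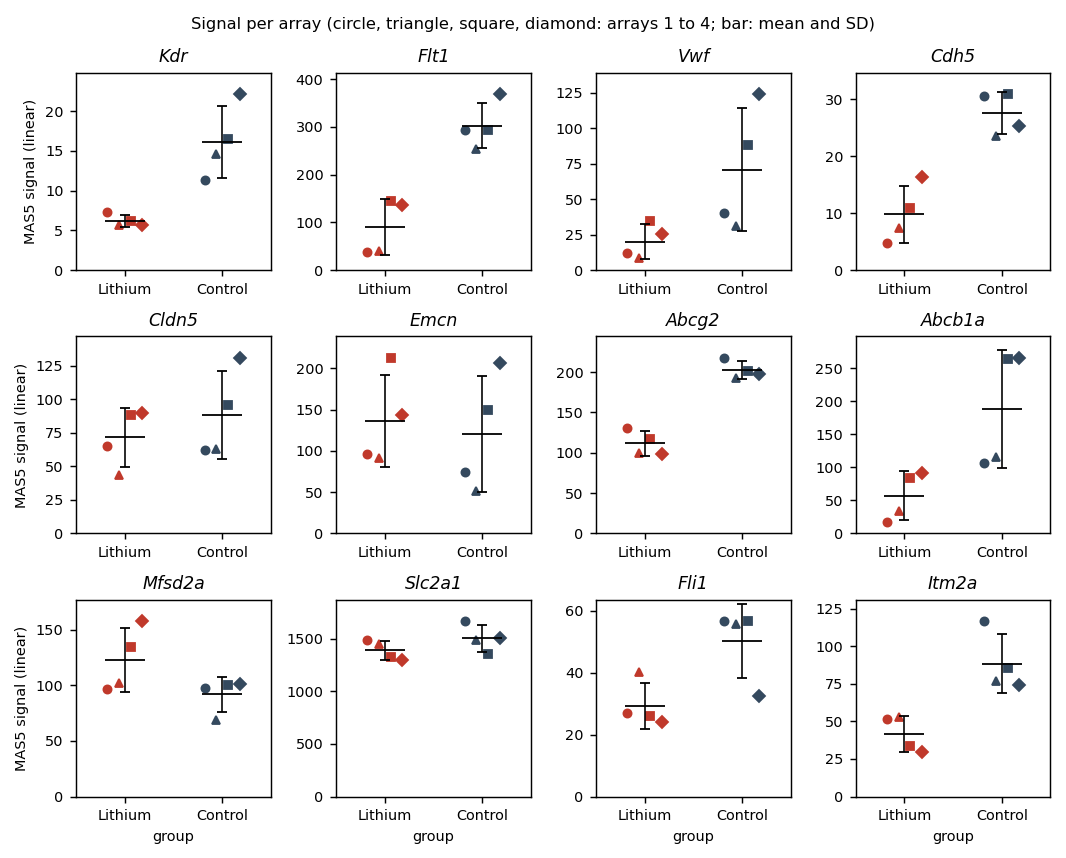
MAS5 signal (y axis, linear, from 0) of 12 endothelial genes in lithium (left) and control (right), with 1 symbol per array number and bars for the mean and SD of 4 arrays. Kdr, Flt1, Cdh5, Abcg2, Abcb1a and Itm2a do not overlap between groups, whereas Vwf, Cldn5, Emcn, Mfsd2a, Slc2a1 and Fli1 do.

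The junction and surface adhesion proteins had a median log2 fold change of -0.31 over 9 genes, with 0 called in either direction. At an unadjusted p under 0.05 there were 2, Cdh5 and Ocln (22.2%, against 12.6% of all genes in the lower direction). The same 2 were without overlap (22.2%, against 8.92% of all genes). Cdh5, or VE-cadherin, is the adhesion molecule of the endothelial adherens junction. It read 4.79, 7.32, 10.9 and 16.3 on lithium arrays 1 to 4, against 30.6, 23.6, 30.9 and 25.4 on control arrays 1 to 4. The control arrays lay close together and all above the lithium arrays. The log2 fold change was -1.63 (SE 0.37, adjusted p = 0.0771 by limma), and it passed without lithium array 4 (adjusted p = 0.0473).

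Ocln encodes occludin, a membrane protein of tight junctions. Its signal was 7.35, 6.37, 9.38 and 9.75 on lithium arrays 1 to 4, against 22.8, 15.4, 13.4 and 11.3 on control arrays 1 to 4, with a log2 fold change of -0.91 (SE 0.25, adjusted p = 0.115). The groups did not overlap, and the smallest gaps were on arrays 3 and 4. Cldn5, the claudin that seals brain endothelium against small molecules, read 64.9, 43.4, 88.2 and 90.0 in lithium and 62.4, 62.9, 95.7 and 131 in control. Its groups overlapped widely, with a log2 fold change of -0.29 (SE 0.34, adjusted p = 0.731).

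Pecam1, an adhesion molecule at the borders between endothelial cells, averaged 13.7 ± 4.04 in lithium and 12.5 ± 1.90 in control (log2 fold change 0.10, SE 0.23, adjusted p = 0.883). Emcn, or endomucin, a mucin-like protein of capillaries and veins, averaged 136 ± 56.1 in lithium and 120 ± 70.5 in control (0.30, SE 0.50, adjusted p = 0.827). These were the only 2 junction and surface genes whose mean log2 value was higher in lithium, and the sign of both turned when single arrays were left out. Esam, a junctional adhesion molecule of the immunoglobulin family, averaged 42.9 ± 13.0 in lithium and 67.1 ± 17.1 in control (-0.66, SE 0.28, adjusted p = 0.285).

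The leukocyte ligand Icam2 and the sialomucins Podxl and Cd34, had overlapping groups. Icam2 averaged 28.6 ± 14.1 in lithium and 45.1 ± 27.2 in control (log2 fold change -0.54, adjusted p = 0.693). Podxl averaged 207 ± 38.2 in lithium and 257 ± 53.6 in control (-0.31, adjusted p = 0.457), and Cd34 154 ± 47.2 in lithium and 190.0 ± 87.2 in control (-0.24, adjusted p = 0.803).

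The barrier transporters differed among themselves, with log2 fold changes of -1.90 to 0.40 around a median of -0.29 over 7 genes. Of these 1 was called lower (14.3%, against 2.05% of all genes) and 0 higher. Abcg2, an efflux pump for drugs and other compounds at the luminal membrane of brain endothelium, read 131, 99.1, 117 and 98.7 on lithium arrays 1 to 4, against 218, 193, 201 and 197 on control arrays 1 to 4. The 2 groups stood well apart and each varied little. Abcg2 fell 1.83-fold (log2 fold change -0.87, SE 0.11, adjusted p = 0.0201 by limma). After median centring its adjusted p was 0.102, and without control array 1, 3 or 4 it was 0.0604, 0.0597 or 0.0605.

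Abcb1a, or P-glycoprotein, is the other main efflux pump of the barrier. It read 17.3, 33.5, 84.3 and 91.7 on lithium arrays 1 to 4, against 107, 116, 264 and 266 on control arrays 1 to 4. In both groups arrays 3 and 4 were far above arrays 1 and 2, and the groups did not overlap. The log2 fold change was -1.90 (SE 0.63, adjusted p = 0.177), and the gene's other probe set had one of -2.58 (adjusted p = 0.105).

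The carriers that bring nutrients inwards were closer between groups. Slc2a1, the glucose transporter GLUT1 of endothelium and glia, read 1485, 1451, 1328 and 1295 in lithium and 1671, 1489, 1355 and 1508 in control. Its groups overlapped, with a log2 fold change of -0.11 (SE 0.09, adjusted p = 0.567). Mfsd2a, which carries lysolipids with docosahexaenoic acid and restrains vesicle transport, read 96.9, 102, 134 and 158 in lithium and 97.5, 68.5, 100 and 101 in control (0.40, SE 0.21, adjusted p = 0.374). Slco1c1, a carrier of thyroid hormone, averaged 9.86 ± 1.78 in lithium and 7.60 ± 1.84 in control (0.40, SE 0.23, adjusted p = 0.440). Mfsd2a and Slco1c1 were thus above their controls on average, without passing the test.

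Bsg, or basigin, brings monocarboxylate carriers to the membrane in many cell types. It read 837, 681, 914 and 836 in lithium and 1058, 974, 979 and 1104 in control, without overlap (log2 fold change -0.34, SE 0.10, adjusted p = 0.146). Slco1a4, a carrier of organic anions, lay at or under the poly-A controls on 3 lithium and 3 control arrays, so that its log2 fold change of -0.29 (SE 0.67, adjusted p = 0.888) had little signal behind it.

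The transcription factors had a median log2 fold change of -0.62 over 4 genes, and none passed the test. Fli1, an ETS factor of endothelial and blood cells, read 26.9, 40.1, 25.9 and 24.0 in lithium and 56.6, 55.6, 56.8 and 32.4 in control. Control array 4 overlapped lithium and the other 3 control arrays did not (log2 fold change -0.78, SE 0.25, adjusted p = 0.158). Erg, the ETS factor that maintains endothelial identity, averaged 6.24 ± 2.95 in lithium and 7.24 ± 4.30 in control, with 1 array of each group at or under the poly-A controls (0.06, SE 0.84, adjusted p = 1.00).

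Sox18, a SOXF factor active in growing vessels, read 3.28, 3.53, 9.69 and 5.22 in lithium and 10.5, 7.73, 23.0 and 15.7 in control (log2 fold change -1.41, SE 0.46, adjusted p = 0.173). Its lithium array 3 lay above control array 2, and 2 lithium arrays were at or under the poly-A controls. Sox17, a SOXF factor of arteries, averaged 9.07 ± 2.03 in lithium and 13.9 ± 7.42 in control (-0.46, SE 0.44, adjusted p = 0.668).

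The secreted proteins, enzymes and other surface markers had a median log2 fold change of -0.94 over 4 genes, all lower on average in lithium and none called. Vwf, the clotting protein that endothelium stores and secretes, read 11.8, 8.63, 34.8 and 25.4 in lithium and 40.0, 30.9, 88.5 and 124 in control. Arrays 3 and 4 were the high ones of both groups, and only lithium array 3 exceeded a control array (log2 fold change -1.81, SE 0.62, adjusted p = 0.189). Itm2a, a membrane protein enriched in brain endothelium, read 51.3, 52.9, 33.9 and 29.4 in lithium and 117, 77.2, 85.6 and 74.3 in control. Its groups did not overlap, and unlike Vwf its mean over arrays 3 and 4 was below that over arrays 1 and 2 in both groups (log2 differences of -0.72 in lithium and -0.25 in control), with lithium minus control at -1.10 (SE 0.25, adjusted p = 0.0751).

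Egfl7, an endothelial secreted factor that shapes the vessel tube, averaged 66.9 ± 31.7 in lithium and 110 ± 33.4 in control (log2 fold change -0.78, SE 0.40, adjusted p = 0.375), and 3 of its 4 probe sets were lower in lithium. Nos3, the endothelial enzyme that makes nitric oxide, averaged 15.3 ± 5.69 in lithium and 24.5 ± 4.61 in control (-0.74, SE 0.29, adjusted p = 0.237). Both genes overlapped between groups and were lower in lithium in all 4 number pairs. Between the roles, medians are given as a description, and their difference was not tested.

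**Figure D3:**
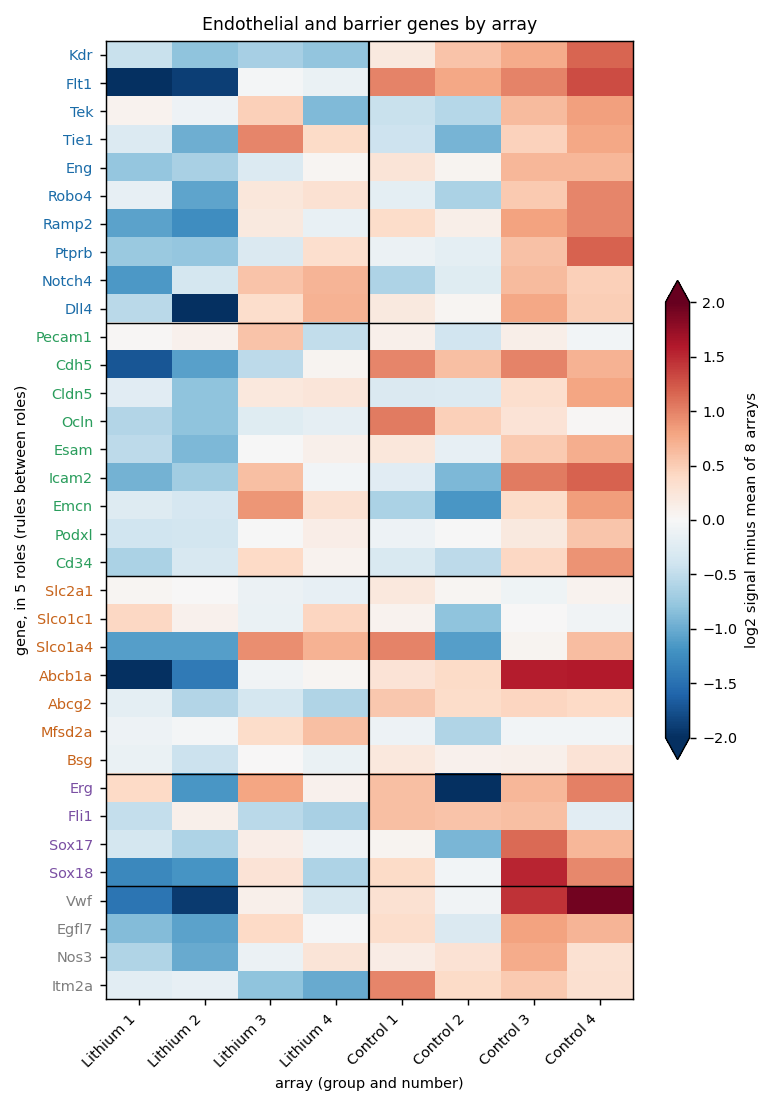
Log2 signal of each measured endothelial gene (rows, in the order of the roles) on each array (columns, lithium left, control right), minus the gene's mean over the 8 arrays, with signals floored at 1. Blue is lower and red higher, and in both groups the columns of arrays 3 and 4 are redder than those of arrays 1 and 2 for most genes.

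The map of genes by array shows a second pattern that runs across the groups. Of the 34 genes, 25 (73.5%) were higher on arrays 3 and 4 than on arrays 1 and 2 in both lithium and control, against 35.2% of all genes. The median of this difference was 0.77 in lithium and 0.58 in control on the log2 scale, against 0.07 in lithium and 0.00 in control over all genes. Within arrays 1 and 2 the median log2 fold change between lithium and control was -0.67 over the 34 genes, and within arrays 3 and 4 it was -0.53. The labels do not say what the array numbers stand for, and what arrays 3 and 4 share was not tested.

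With a term for arrays 1 and 2 against arrays 3 and 4, an alternative known from an earlier look at these data, 11 of 34 genes (32.4%) passed in the lower direction, against 5.71% of all genes. They were Abcb1a, Abcg2, Cdh5, Eng, Esam, Flt1, Itm2a, Kdr, Ramp2, Sox18 and Vwf, with adjusted p-values by limma such as 0.0103 for Vwf, 0.0126 for Eng and 0.0153 for Abcb1a. With each replicate number as its own block, 0 of 34 passed, against 0.346% of all genes. In the same 4 number pairs, 19 genes (55.9%) were lower in lithium in each pair, against 18.3% of all genes, and 0 were higher in each pair, against 15.2%.

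Other genes of the same pathways were counted from lists of vascular genes. Of the Wnt genes of barrier formation, 3 of 17 measured passed in the lower direction (17.6%, against 2.05% of all genes). In the higher direction 0 passed (against 1.18% of all genes), and the median log2 fold change was -0.71. Foxq1, a forkhead factor found in brain endothelium, read 5.66, 5.25, 5.30 and 4.90 on lithium arrays 1 to 4, against 20.6, 23.5, 24.7 and 24.8 on control arrays 1 to 4. Both groups were tight and far apart (-2.15, SE 0.08, adjusted p = 0.0016 by limma). Foxq1 passed without each array in turn and with the replicate block (adjusted p = 0.0394). Its lithium values lay only just above the poly-A controls (highest 3.56 to 4.33 on these arrays), so that the size of this difference is uncertain. Fzd6, a Wnt receptor, and Lef1, a transcriptional partner of beta-catenin, also fell, with log2 fold changes of -1.17 (adjusted p = 0.0177) and -1.33 (adjusted p = 0.0394). Neither passed with the block (adjusted p = 0.0663 for Fzd6 and 0.08 for Lef1). Of the 3 probe sets of Fzd6, 2 were lower in lithium. Axin2, a general target of beta-catenin, had 242, 205, 190.0 and 192 in lithium and 171, 174, 156 and 147 in control, the opposite direction without overlap (0.35, SE 0.10, adjusted p = 0.132). Axin2 was chosen after its values were seen.

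Among the vascular growth factors and their other receptors, 1 of 18 passed, lower (5.56%, against 2.05% of all genes), with a median of -0.49. This was Pdgfb, the factor by which endothelium recruits pericytes, at 16.8 to 20.3 in lithium and 25.7 to 32.3 in control (log2 fold change -0.58, adjusted p = 0.0375, or 0.0619 with the block). Of the 2 probe sets of Pdgfb, only the 1 taken was lower in lithium. Angpt1, the angiopoietin that activates TIE2, read 19.0 to 37.3 in lithium and 59.8 to 97.8 in control, and did not pass (-1.41, adjusted p = 0.0516 by limma). It passed with the block (adjusted p = 0.0487) and with a term for arrays 1 and 2 against 3 and 4 (adjusted p = 0.0066). Angpt1 was named after its values were seen. Among the Notch genes of vessels, 1 of 10 passed (10%, against 2.05% of all genes called lower), and the median was -0.50. This was Jag1, a Notch ligand, at 115 to 168 in lithium and 261 to 300.0 in control (-0.99, adjusted p = 0.0201, or 0.0802 with the block). The groups of Pdgfb, Angpt1 and Jag1 did not overlap.

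Of the other endothelial transcription factors, 1 of 16 passed (6.25%, against 2.05% of all genes called lower). This was Foxc1, a forkhead factor of vessels, pericytes and meninges, at 38.6 to 55.6 in lithium and 128 to 163 in control (log2 fold change -1.64, adjusted p = 0.0108). Foxc1 passed without each array in turn, but not with the block (adjusted p = 0.0564). Of the other barrier and vesicle transporters, 1 of 21 passed (4.76%, against 2.05% of all genes called lower). This was Slc22a8, an organic anion carrier, at 1.78 to 6.17 in lithium and 11.2 to 14.6 in control (-2.14, adjusted p = 0.0473, or 0.0811 with the block). Of its lithium arrays 2 lay at or under the poly-A controls, so that the size of this difference is uncertain. Of the other junction proteins, 0 of 12 passed by limma. At an unadjusted p under 0.05 there were 3 lower (25%, against 12.6% of all genes) and 1 higher (against 9.38% of all genes). Their medians were -0.54, -0.22 and -0.25 in the order given, and no list held a gene called higher by the probe set taken. Among vascular genes not called, another probe set was called higher for Nrp2 (1 of 4) and Abcc5 (1 of 10). Another was called lower for Lepr (1 of 4) and Nr2f2 (1 of 6).

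**Figure D4:**
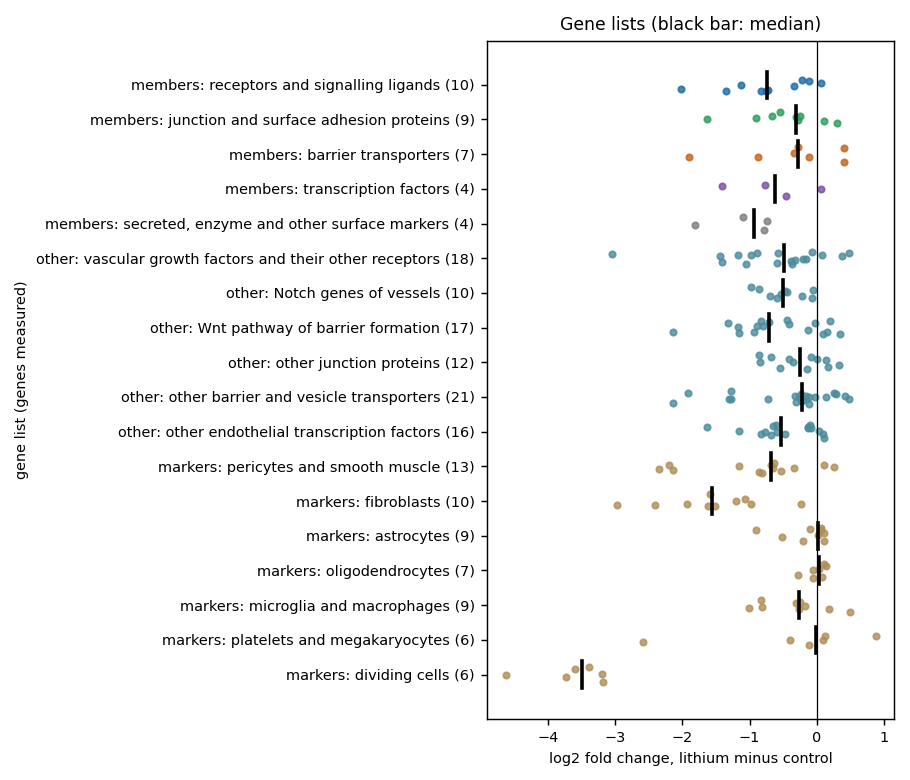
Log2 fold change, lithium minus control (x axis), of each gene of the endothelial roles, of the other vascular lists and of the markers of other cell types (y axis, with the number of genes measured), black bars being medians. Dividing-cell markers lie at -4.63 to -3.18, fibroblast markers at -2.97 to -0.23, and the medians of astrocyte and oligodendrocyte markers at 0.02 and 0.03.

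Markers of other cells moved in the same libraries. The 10 fibroblast markers had a median log2 fold change of -1.56, with 2 called lower (20%, against 2.05% of all genes). They summed to 1168 to 2707 on lithium arrays and 3921 to 6173 on control arrays. The 13 markers of pericytes and smooth muscle had a median of -0.68, with 1 called lower (Pdgfrb, 7.69%, against 2.05% of all genes), and summed to 1244 to 2123 in lithium and 1339 to 2136 in control. Tagln, at 812 to 1834 in lithium and 660 to 1186 in control, was the largest part of these sums. Its log2 fold change was 0.25, the highest of the list, whereas 11 of the 13 markers were lower on average, down to -2.35. Myh11 and Cnn1 lay at or under the poly-A controls on most arrays. A probe set other than the one taken was called lower for Rgs5 (1 of 4) and Abcc9 (1 of 3). The 6 markers of dividing cells had a median of -3.50, with 2 called lower (33.3%, against 2.05% of all genes), and summed to 67.3 to 239.7 in lithium and 818.3 to 2160 in control. The part of these cells in the values of the endothelial genes was not tested.

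Glial markers were closer to 0. The 9 astrocyte markers had a median of 0.02 and sums of 7540 to 8853 in lithium and 8070 to 8609 in control. The 7 oligodendrocyte markers had a median of 0.03 and sums of 10140 to 13230 in lithium and 10150 to 10880 in control. In either list 0 were called. At an unadjusted p under 0.05, 1 astrocyte marker (11.1%) and 0 oligodendrocyte markers were lower, against 12.6% of all genes. The 9 markers of microglia and macrophages had a median of -0.26, with 1 called lower (Tyrobp, 11.1%, against 2.05% of all genes), and sums of 1759 to 2338 in lithium and 2375 to 3116 in control. Platelets also hold Vwf, and their 6 markers had a median of -0.01, with 1 called lower (Ppbp, 16.7%, against 2.05% of all genes) and sums of 1152 to 1295 in lithium and 1403 to 2023 in control. Of these markers, Gp6, a platelet collagen receptor, lay at 0.111 to 0.382 in lithium and 0.075 to 1.37 in control, at or near the floor. Gp9 lay at or under the poly-A controls on 1 lithium and 2 control arrays. The rest lay above these controls on every array. Pf4 read 974 to 1202 in lithium and 858 to 1146 in control, and Ppbp 51.2 to 145 in lithium and 350 to 831 in control. Itga2b read 13.9 to 29.1 in lithium and 16.3 to 22.3 in control, and Gp1bb 8.85 to 13.1 in lithium and 9.03 to 28.2 in control. The part of platelets in the Vwf values was not tested.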

How the data were processed

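RNA of 4 lithium-treated and 4 control samples was hybridised to Affymetrix whole-genome mouse arrays. The authors deposited MAS5 signals, linear intensities with 1 value per probe set and array, made in GeneSpring GX after the scanner's software. A baseline step that the methods mention is not visible in these values. Of 45101 probe sets, 64 Affymetrix controls were left out and 45037 were tested. Intensities were floored at 1, which applied to 14.5% of values, and taken to log2, so that differences of dim genes are understated. The difference (lithium minus control) was estimated in R 4.3.3 by limma 3.58.1 (lmFit, eBayes), with no block term, and with Benjamini-Hochberg adjustment over all tested probe sets and a threshold of 0.05. Means and SDs refer to linear signals, whereas a fold change compares group means on the log2 scale. The script was tested on simulated data, with shifts planted only in brighter and less variable probe sets. It recovered 100 of 100 shifts of 3 (log2) and 83 of 100 shifts of 1.5, and 14 of 197 calls were wrong. Recovery of smaller shifts or of dim genes was not tested. The number of arrays limits the precision.

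Probe sets were named from the platform annotation, only where it gives 1 symbol, and a gene was taken by its brightest probe set. The text names all members, and the members of the other vascular lists past the threshold (at most 3 in each direction of a list). Axin2 and Angpt1, which did not pass, and genes with only another probe set called were added. Of marker lists the text gives the sums, with called or floored members, Tagln and the levels of the platelet markers. The members and lists were chosen with earlier results of these data known. Alternatives were quantile normalization, median centring, log2 of the signal plus 16, a mean signal of at least 50 in either group, the average over a gene's probe sets, no _x_at or _s_at probe sets, a robust variance with a trend, weights for arrays, the replicate block, a term separating arrays 1 and 2 from arrays 3 and 4, and leaving out single arrays.

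To check the replicate numbers, each array's deviation from its group mean was correlated with that of the array of the same number in the other group. All 4 correlations (0.130 to 0.197) exceeded the limit of 0.1. On the data alone, results with the numbers as a block are therefore given for the called vascular genes, beside the main fit without a block. Arrays of other numbers within 1 and 2 or within 3 and 4 correlated at 0.071 to 0.131, which does not separate number pairs from these sets of arrays. Plots used matplotlib 3.10.9 (Python 3.11.15).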

Additional observations from a re-analysis of the deposited data

Results flagged for a closer look

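Of 68 groups of 4 arrays tested, 4 held an array far from the other 3 of its group (by the gap to the nearest array over the range of the log2 values, Dixon's test), and chance flags about 1 in 20 groups. Control array 2 was low for Mfsd2a (68.5, against 97.5 to 101 on the other 3 control arrays, gap over range 0.899), for Slco1c1 (4.87, against 8.09 to 8.87, 0.846) and for Erg (1.04, against 8.30 to 11, 0.882). Control array 4 was low for Fli1 (32.4, against 55.6 to 56.8, 0.962). The means of Mfsd2a and Slco1c1, both above their controls in lithium, hold that array, and without control array 2 the log2 fold change was 0.27 for Mfsd2a and 0.20 for Slco1c1. Without control array 4 it was -0.98 for Fli1.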

How the results depend on the processing

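The number of endothelial genes called lower, 2 as reported, was 4 with log2 of the signal plus 16 (11.8%, against 3.47% of all genes). It was 4 with a trended and robust variance (11.8%, against 3%), 11 with a term separating arrays 1 and 2 from arrays 3 and 4 (32.4%, against 5.71%), and 0 with the replicate block (against 0.346%). Among the 18 genes with a mean signal of at least 50 in either group it was 4 (22.2%, against 6.39%). A gene can enter that set through the group where it is higher. Itm2a, 1 of these 4, entered through control only (mean 88.5, against 41.9 in lithium), so this count is not independent of the difference. The share of all genes called lower was 2.05% as reported and thus moved with the setting too. The replicate block was also the only alternative other than leaving out an array with fewer than 2 calls. The number was 0 to 2 when each array was left out, against 0.33% to 1.31% of all genes, with Kdr called without control array 1, Abcg2 without control array 2 or lithium array 1, 2 or 3, Abcg2 and Cdh5 without lithium array 4, and none without control array 3 or 4. The count called higher was 0 in all 18 alternatives. Of 596 alternatives for single genes, 539 kept direction and side of the threshold, 13 lost a call, 22 gained one and 22 turned the sign, in 8 genes whose main difference was not called. With each array left out in turn, their log2 fold changes lay at -0.45 to 0.04 for Tek, -0.26 to 0.39 for Tie1, -0.37 to 0.24 for Notch4, -0.07 to 0.28 for Pecam1, -0.04 to 0.62 for Emcn, -0.46 to 0.02 for Cd34, -0.70 to 0.03 for Slco1a4 and -0.73 to 0.46 for Erg. The arrays whose omission turned the sign were lithium 4 and control 4 for Tek, lithium 3 and 4 and control 1 and 2 for Tie1, lithium 1 and control 3 and 4 for Notch4, lithium 3 and control 2 for Pecam1, control 2 for Emcn, control 4 for Cd34, lithium 1 and 2 for Slco1a4, and lithium 1 and 3 and control 2 for Erg. Array weights gave 0.17 for Notch4 and 0.15 for Slco1a4, log2 of the signal plus 16 gave -0.05 for Erg, and the average over a gene's probe sets gave -0.24 for Erg. The median log2 fold change of the 34 genes, -0.60 as reported, was -0.36 with log2 of the signal plus 16, -0.37 with array weights, -0.38 with the average over a gene's probe sets and -0.80 to -0.37 with an array left out. The cause of these changes was not tested. Low signals limit genes that lie near the poly-A controls, such as Kdr, Dll4, Erg, Sox18, Slco1a4, Slc22a8 and Foxq1. Tie1 and Cdh5 also came near these controls (4.33 for Tie1 on lithium array 2, and 4.79 for Cdh5 on lithium array 1). With 4 arrays a group, a difference below the spread was not detectable.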
